A study of Mus musculus with 6 samples.

Results

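The 9 genes described here encode secreted ligands of 2 families that act on blood and lymphatic vessels: the vascular endothelial growth factors (Vegfa, Vegfb, Vegfc and Figf, the older symbol of Vegfd) and the angiopoietins with their relatives (Angpt1, Angpt2, Angptl1, Angptl2 and Angptl4). They were chosen by symbol, with earlier results of these data known, and all 9 were found among the 23329 genes of the count tables. All 9 also passed the filter on low counts, which kept 13478 genes. The libraries came from primary cultures of small intestinal mesenchymal cells of C57 mice, 3 from adults and 3 from embryos at embryonic day 14.5 (E14.5). In both groups the epithelium was chelated away, a collagenase and dispase digest of the rest was grown in serum with the kinase inhibitor Y27632, and RNA was isolated from cells at passage 2 to 3. The adult tissue had its villi scraped away first, and the embryonic tissue was only divided into pieces. No sort was named and the adults' age is not given. The names of the deposited count tables include PBS, with no explanation in the labels. Whether cultures of 1 group derive from different animals is not stated, so p-values cover only the spread between these cultures.

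VEGF ligands signal through receptor tyrosine kinases on endothelial cells. VEGF-A acts mainly through KDR and is induced by low oxygen, VEGF-B binds FLT1, and VEGF-C and VEGF-D bind FLT4, the receptor of lymphatic endothelium. The angiopoietins bind TEK (also called TIE2): ANGPT1, made by mural and other mesenchymal cells, activates it and steadies vessels, and ANGPT2 can oppose this. The angiopoietin-like proteins share the angiopoietin domain layout but are not classical TEK ligands, and ANGPTL4 inhibits lipoprotein lipase. In the gut wall these signals come largely from stromal and muscle cells and serve the villus capillaries and the lacteals, the lymphatic vessels that take up fat.

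Stretches at the start sites of 3 of these genes are shown because Figf and Angptl1 were 2 of the 3 ligand genes higher in adult cultures, and Vegfc is the closest relative of Figf and did not pass the test. Each is 300 bases long, from 250 before to 50 after the RefSeq start (GRCm38.p6, the mm10 build), read 5′ to 3′ on the gene's strand. Capitals mark matches on either strand to TATAAA (the TATA box), GGGCGG (the GC box), TGANTCA (the AP-1 site) and ACGTG or GCGTG (cores of the hypoxia response element).
Figf, chrX:164373272-164373571, plus strand: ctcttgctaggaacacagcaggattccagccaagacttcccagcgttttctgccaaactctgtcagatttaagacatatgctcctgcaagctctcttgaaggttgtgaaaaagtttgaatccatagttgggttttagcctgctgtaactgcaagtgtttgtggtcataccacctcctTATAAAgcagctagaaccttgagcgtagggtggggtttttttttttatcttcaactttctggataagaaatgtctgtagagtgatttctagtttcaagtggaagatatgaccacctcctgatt
Angptl1, chr1:156838773-156839072, plus strand: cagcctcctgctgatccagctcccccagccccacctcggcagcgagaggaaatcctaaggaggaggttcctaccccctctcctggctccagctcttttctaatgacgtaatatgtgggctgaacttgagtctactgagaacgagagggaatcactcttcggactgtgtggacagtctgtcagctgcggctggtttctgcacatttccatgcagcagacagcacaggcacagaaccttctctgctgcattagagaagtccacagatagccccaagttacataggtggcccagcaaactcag
Vegfc, chr8:54077282-54077581, plus strand: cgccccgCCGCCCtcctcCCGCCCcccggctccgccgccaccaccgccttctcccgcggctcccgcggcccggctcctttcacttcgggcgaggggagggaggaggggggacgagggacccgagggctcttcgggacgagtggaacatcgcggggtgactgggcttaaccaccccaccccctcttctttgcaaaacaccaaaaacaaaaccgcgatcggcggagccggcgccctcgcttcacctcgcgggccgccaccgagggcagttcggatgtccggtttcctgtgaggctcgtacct
The Figf stretch held 1 TATAAA, starting at -73 from the start site, and had 42% G and C. Vegfc held 2 GC boxes and no TATAAA, with 70.3% G and C. Angptl1, with 54.3% G and C, held no match to any of these motifs. Of 32851 such stretches of mouse genes, 13.6% hold a TATAAA, 35.7% a GGGCGG, 7.81% a TGANTCA, 19.6% an ACGTG and 32.4% a GCGTG, and the median G and C content is 52.7%. RefSeq entries for 6 of the 9 genes were matched. In the GENCODE annotation of mm10, Vegfa and Angptl4 lie on chromosome 17, Vegfb on 19, Vegfc and Angpt2 on 8, Figf on X, Angpt1 on 15, Angptl1 on 1 and Angptl2 on 2. The 2 annotations place starts differently. The whole Angptl1 stretch lies inside the GENCODE gene, which begins at 156838562. The RefSeq start of Figf also lies inside its GENCODE gene, which begins at 164373378. Motif matches and positions given here therefore refer to the RefSeq starts alone. A match is a string of letters and shows no binding.

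Total gene counts per library lay between 18850224 and 32672370. The libraries carried the markers of the labelled mesenchymal cells: the fibroblast collagen gene Col1a1 and the smooth muscle actin gene Acta2 averaged 5280 and 12800 CPM in adult cultures and 9500 and 12900 CPM in E14.5 cultures. CPM are counts scaled to a library of 1000000 reads, with TMM correcting the library sizes. The libraries differed in markers of other cells. Adult replicates 2 and 3 held blood endothelial transcripts, with 15 markers summing to 2130 and 510 CPM. The sum was 54.3 CPM in adult replicate 1 and 92.3, 49.8 and 78.9 CPM in E14.5 replicates 1, 2 and 3, of which Ecscr alone made up 37.9 CPM and 56.1, 37.5 and 43.5 CPM. Pecam1, an endothelial marker of the list, measured 0.946 CPM in adult replicate 1, 444 and 81.5 CPM in adult replicates 2 and 3, and 0.438, 0.714 and 0.463 CPM in E14.5 replicates 1, 2 and 3. Cdh5, the endothelial cadherin gene, measured 0.909, 255 and 82 CPM in the adult libraries and at most 0.155 CPM in the E14.5 libraries. The endothelial genes Cldn5, Robo4 and Mmrn2 were at 0 counts in at least 2 of the E14.5 libraries. Other markers of the list were present there. Emcn, for the sialoprotein endomucin, had 2.39, 1070 and 191 CPM in the adult libraries and 22.5, 0.528 and 0.216 CPM in the E14.5 libraries. Vwf, for von Willebrand factor, had at most 2.28 CPM in an adult library and 1.91, 1.52 and 13.6 CPM in the embryonic ones. Cd93 reached 16.5 CPM in an adult and 16.1 CPM in an E14.5 library. Of 10 endothelial markers tested, edgeR called 0 at an adjusted p of 0.05, and 5 were under 0.05 unadjusted (17.9% of all genes were). DESeq2 called 5 and limma-voom 0 of them, against 10.6% and 1.02% of all genes. Macrophage and leukocyte markers ran the other way, with 12 genes summing to 194, 24.9 and 51 CPM in adult and 239, 438 and 2680 CPM in E14.5 replicates 1, 2 and 3.

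The comparison of adult with E14.5 cultures asks how far the stage of the mesenchyme changes its supply of vessel signals. Of the 9 ligand genes, 3 were higher in adult cultures by edgeR's quasi-likelihood test at an adjusted p of 0.05 (Angpt2, Figf and Angptl1) and 0 were lower. Over all 13478 genes the same test called 1.08%, with 0.838% higher and 0.245% lower in adults. The median log2 fold change, adult over E14.5, was 0.73 over the 9 genes and -0.01 over all genes. In 4 of the 9 every adult library lay above every E14.5 library and in 1 below, where the background over all genes is 12% and 12.1%, or 24.1% in either direction. DESeq2 called 4 of the 9, adding Angptl4, against 10.6% of all genes. Limma-voom called 1, Angptl1, against 1.02%. The 9 genes were chosen with earlier results of these data known, so their shares beside the background do not test the set. In bulk RNA, fewer cells that make a transcript and less of it per cell cannot be told apart.

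**Figure D1:**
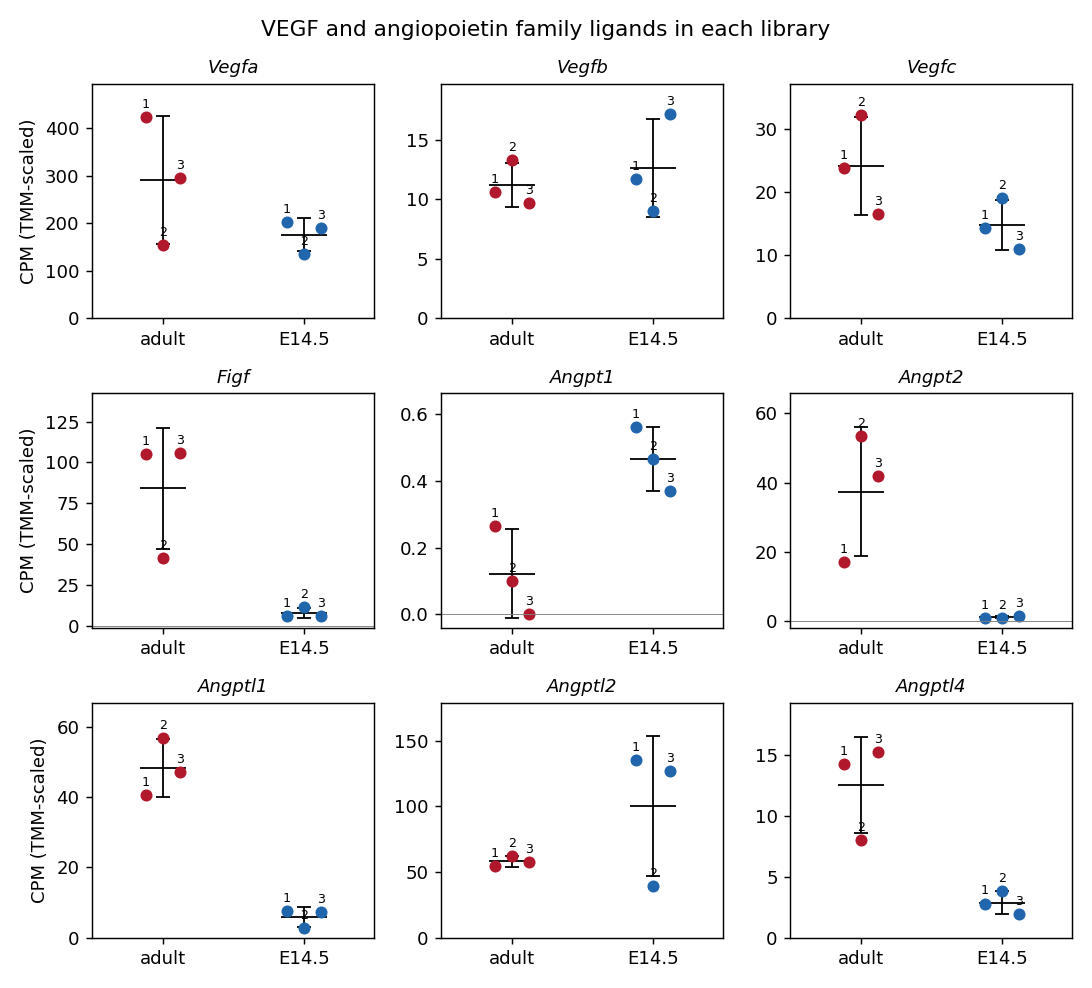
Level of each of the 9 ligand genes as CPM on a linear axis in the 3 adult libraries (red, left) and the 3 E14.5 libraries (blue, right). Points are libraries with their replicate number, and bars give the mean and SD. Angpt2, Figf, Angptl1 and Angptl4 show every adult point above every E14.5 point, Angpt1 shows the reverse, and the other 4 overlap.

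Per kilobase of exon, which allows levels of different genes to be set side by side, Vegfa was the most abundant of the 9 transcripts at both stages. In adult cultures it averaged 83 ± 38.5 CPM per kilobase, followed by Figf at 41.1 ± 18, Angptl2 at 17.4 ± 1.21, Angptl1 at 17 ± 2.87, Angpt2 at 10.5 ± 5.2, Vegfc at 9.84 ± 3.18, Vegfb at 8.75 ± 1.47, Angptl4 at 3.79 ± 1.2 and Angpt1 at 0.0285 ± 0.0314 (SD, n = 3). The ranges over libraries of neighbours in this order overlapped except between Figf and Angptl2, Vegfb and Angptl4, and Angptl4 and Angpt1. In E14.5 cultures the order was Vegfa at 49.9 ± 10, Angptl2 at 30 ± 15.9, Vegfb at 9.86 ± 3.24, Vegfc at 6.02 ± 1.65, Figf at 3.85 ± 1.61, Angptl1 at 2.09 ± 0.987, Angptl4 at 0.869 ± 0.281, Angpt2 at 0.305 ± 0.0736 and Angpt1 at 0.109 ± 0.0225 CPM per kilobase (SD, n = 3). Here neighbours separated between Figf and Angptl1, Angptl4 and Angpt2, and Angpt2 and Angpt1. Exon lengths came from the GENCODE annotation of the same build, which may differ from the one used for counting.

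Figf, the gene for the lymphatic growth factor VEGF-D, was 10.6-fold higher in adult cultures. It had 105, 41.5 and 106 CPM in adult replicates 1, 2 and 3, against 6.07, 11.7 and 5.93 CPM in E14.5 replicates 1, 2 and 3. The groups did not overlap, although adult replicate 2 had less than each of the other adult libraries and E14.5 replicate 2 more than the other embryonic ones. The means were 84 ± 36.8 CPM in adult and 7.9 ± 3.29 CPM in E14.5 cultures (SD, n = 3 each), a log2 fold change of 3.41 (SE 0.48, adjusted p = 0.041, edgeR). The gene lies on the X chromosome from 164373378 to 164402650 on the plus strand. The adult library richest in endothelial markers, replicate 2, was the lowest in Figf, and adult replicate 1, with Pecam1 under 1 CPM, had 105 CPM. The 7 mesothelial markers summed to 1490, 546 and 745 CPM in adult and 163, 789 and 153 CPM in E14.5 replicates 1, 2 and 3. Like Figf, this sum was lowest in adult replicate 2 and highest of the embryonic libraries in replicate 2. It differed between adult replicates 1 and 3, where Figf was nearly equal. Fibroblast and smooth muscle sums were also lowest of the adult libraries in replicate 2, at 11900 and 18600 CPM. In E14.5 replicate 2 the fibroblast sum was the lowest of the embryonic ones, at 12500 CPM. The part of any of these cell types in the Figf values was not tested. The call was lost without adult replicate 1 (adjusted p = 0.093), adult replicate 3 (0.18), E14.5 replicate 1 (0.14) or E14.5 replicate 3 (0.089), and in limma-voom (0.058), while DESeq2 gave 1.4e-11. The log2 fold change lay between 3.21 and 3.81 over these and all other alternatives.

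Vegfc, the related ligand of the same receptor, showed a small difference that did not pass the test. It had 23.7, 32.1 and 16.5 CPM in the adult libraries and 14.2, 19 and 11 CPM in the E14.5 libraries. The ranges overlapped, since adult replicate 3 lay below E14.5 replicate 2, and the fitted log2 difference of 0.71 (SE 0.31) had an adjusted p of 0.3 in edgeR. Within each library, Figf counts were 4.42, 1.29 and 6.4 times those of Vegfc in adult replicates 1, 2 and 3, and 0.428, 0.615 and 0.539 times in E14.5 replicates 1, 2 and 3. Transcript length cancels when this ratio is compared between libraries, and the groups did not overlap in it. The pair was chosen with the results known, and the ratio uses the same counts as the values above. Reads of Figf outnumbered those of Vegfc in all 3 adult libraries and were fewer in all 3 E14.5 libraries.

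Vegfa, the main blood vessel growth factor, had the most reads of the 9 genes in every library and spread widely among adult cultures. It had 425, 155 and 296 CPM in adult replicates 1, 2 and 3, and 203, 136 and 189 CPM in E14.5 replicates 1, 2 and 3. Adult replicate 2 lay within the embryonic range and the other adult libraries above it. With a log2 fold change of 0.73 (SE 0.37) it did not pass the test (adjusted p = 0.38, edgeR). Vegfb, whose product binds FLT1, had 10.6, 13.3 and 9.7 CPM in adult and 11.7, 9.03 and 17.2 CPM in E14.5 libraries, a log2 fold change of -0.17 (SE 0.28, adjusted p = 0.82) that turned to 0.11 without E14.5 replicate 3, its highest library. Counts of Vegfa were 40.2, 11.6 and 30.5 times those of Vegfb in the adult libraries and 17.4, 15.1 and 11 times in the E14.5 libraries, so this ratio overlapped between stages. Gene counts do not separate the splice forms of Vegfa.

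Angpt2, the vessel-destabilising angiopoietin, was the most changed of the 9 ligand genes, at 34.3-fold higher in adult cultures. It had 17.1, 53.4 and 41.8 CPM in adult replicates 1, 2 and 3, from 451, 1076 and 1190 counts. In E14.5 replicates 1, 2 and 3 it had 0.938, 0.931 and 1.39 CPM, from 30, 30 and 45 counts. The lowest adult library, replicate 1, was well above every embryonic library. The means were 37.4 ± 18.6 CPM in adult and 1.09 ± 0.263 CPM in E14.5 cultures (SD, n = 3 each), a log2 fold change of 5.1 (SE 0.5, adjusted p = 0.022, edgeR). Its p-value ranked 21 among 13478 genes. The gene lies on chromosome 8 from 18690263 to 18741562 on the minus strand, within Mcph1 on the other strand, whose exons do not overlap its own. Counting by strand keeps the reads of these genes apart. Without adult replicate 3 adjusted p was 0.14, without E14.5 replicate 1 it was 0.1 and in limma-voom 0.081, so the call depended on each of these libraries, while DESeq2 gave 2e-24.

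Endothelial cells are themselves a known source of ANGPT2, and the adult libraries with the most Angpt2 were those with the most endothelial transcripts. In adult replicate 1 the level of 17.1 CPM stood beside Pecam1 at 0.946 CPM and Cdh5 at 0.909 CPM, where the highest embryonic values were 0.714 and 0.155 CPM. Without adult replicates 2 and 3 the log2 fold change was 3.98, with 1 adult library assumed to vary like the embryonic ones (adjusted p = 0.32). Under the same setting Figf was at 3.73 and Angptl1 at 2.79. The part of endothelial cells in the Angpt2 difference was not tested.

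**Figure D2:**
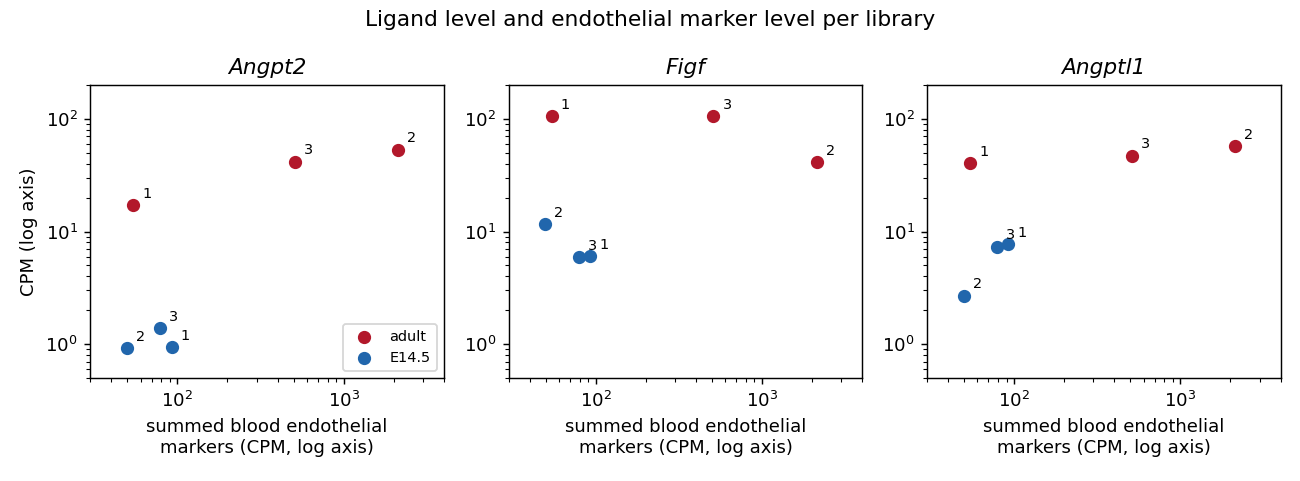
Level of Angpt2, Figf and Angptl1 (CPM, log axis) against the summed level of 15 blood endothelial markers (CPM, log axis), 1 point per library with its replicate number, adult in red and E14.5 in blue. Adult replicate 1, at 54.3 CPM of endothelial markers, lies within the E14.5 range on the horizontal axis of 49.8 to 92.3 CPM and above all E14.5 libraries for each of the 3 genes. Ecscr alone made up 37.9 CPM of that sum, so equal sums do not mean equal levels of each marker. In adult replicate 1 Cdh5, at 0.909 CPM, was above every E14.5 library. Emcn, at 2.39 CPM, was below E14.5 replicate 1 at 22.5 CPM.

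Angpt1, which encodes the activating TEK ligand, was close to the limit of detection at both stages. It had 7, 2 and 0 counts in adult replicates 1, 2 and 3, and 18, 15 and 12 counts in E14.5 replicates 1, 2 and 3. The 0 in adult replicate 3 allows up to 3 counts. In CPM these were 0.265, 0.0993 and 0 in adult and 0.563, 0.465 and 0.371 in E14.5 libraries, so every adult library was below every embryonic one. The log2 fold change of -1.91 (SE 0.91) did not pass the test (adjusted p = 0.34, edgeR) and was -3.3 without adult replicate 1, the adult library with the most reads of the gene. An antisense gene model overlaps its exons on the other strand, and 0 reads were counted on that strand in any library. Mural cells are a known source of ANGPT1, and the pericyte gene Rgs5 had 1.93, 7.75 and 1.76 CPM in adult and 240, 15.7 and 72.9 CPM in E14.5 libraries (adjusted p = 0.12, edgeR). Cspg4, another pericyte gene, ran the other way, with 46.3, 57.4 and 67.2 CPM in adult and 19.1, 2.54 and 10.1 CPM in E14.5 libraries (log2 fold change 2.43, adjusted p = 0.14, edgeR). Kcnj8 and Abcc9 were lower in adults like Rgs5, with log2 fold changes of -3.51 and -3.81 (adjusted p = 0.12 and 0.13, edgeR). Over the 8 pericyte markers the sum was 751 to 831 CPM in adult and 495 to 986 CPM in E14.5 libraries. Mcam alone made up 662 to 755 CPM and 389 to 688 CPM of it. Of the 7 tested, 4 had a positive and 3 a negative log2 fold change. By edgeR, 0 of the 7 tested passed and 4 were under 0.05 unadjusted, against 17.9% of all genes. DESeq2 called 4, with 1 higher and 3 lower in adults, against 10.6% of all genes, and limma-voom called 0. The part of pericytes in the Angpt1 values was not tested.

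The angiopoietin genes were also compared within each library. Counts of Angpt2 were 64.4 times those of Angpt1 in adult replicate 1 (exact 95% interval of the ratio, counting error only, 31 to 161). In adult replicate 2 the ratio was 538 with an interval of 149 to 4450, since it rests on 2 counts of Angpt1. In adult replicate 3, with 0 counts of Angpt1, a floor of 3 counts in its place gave 397. That value has no interval and is not a 95% bound. In E14.5 replicates 1, 2 and 3 they were 1.67, 2 and 3.75 times, with intervals from 0.899 at the lowest to 7.79 at the highest. The lowest adult ratio was well above the highest embryonic one, and the groups did not overlap. The pair was chosen with the results known. Angpt2 was higher and Angpt1 lower in every adult library, so this separation follows from the values given above and is no further result.

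**Figure D3:**
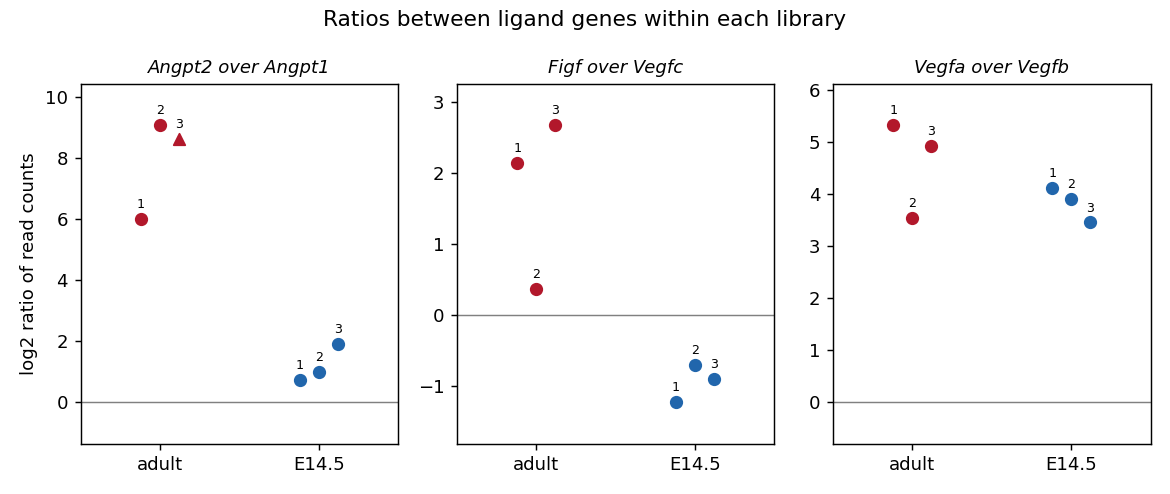
Log2 ratio of read counts between pairs of ligand genes within each library, adult (red, left) and E14.5 (blue, right), labelled by replicate. The triangle takes a floor of 3 counts where Angpt1 had 0 counts. The pairs were chosen with the results known. The Angpt2 to Angpt1 and Figf to Vegfc ratios separate the stages, and the Vegfa to Vegfb ratio of 3.54 to 5.33 in adult libraries overlaps that of 3.46 to 4.12 in E14.5 libraries.

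Angptl1, an angiopoietin-like gene reported to restrain vessel growth, was 8.14-fold higher in adult cultures. It had 40.6, 56.9 and 47.3 CPM in adult replicates 1, 2 and 3, and 7.72, 2.7 and 7.35 CPM in E14.5 replicates 1, 2 and 3. The adult libraries lay close together, and E14.5 replicate 2 was the lowest of all 6. Means of 48.3 ± 8.16 CPM in adult and 5.93 ± 2.8 CPM in E14.5 cultures (SD, n = 3 each) gave a log2 fold change of 3.02 (SE 0.42, adjusted p = 0.04, edgeR). The gene lies on chromosome 1 from 156838562 to 156861078 on the plus strand, opposite Ralgps2, with no shared exon. The call was lost without adult replicate 1 (adjusted p = 0.087), adult replicate 2 (0.092), adult replicate 3 (0.18), E14.5 replicate 1 (0.12) or E14.5 replicate 3 (0.073), and held in DESeq2 (4.5e-11) and limma-voom (0.037).

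Angptl4, which encodes the lipoprotein lipase inhibitor and is induced by fatty acids and by low oxygen, was higher in every adult library without passing the test. It had 14.3, 8 and 15.3 CPM in adult replicates 1, 2 and 3, and 2.81, 3.85 and 1.98 CPM in E14.5 replicates 1, 2 and 3. At a log2 fold change of 2.12 (SE 0.37) it had an adjusted p of 0.067 in edgeR. It passed in DESeq2 (adjusted p = 1.1e-05) and without E14.5 replicate 2 in edgeR (adjusted p = 0.046). Like Figf and Vegfa, it was lowest among adults in replicate 2. Lpl, whose product ANGPTL4 inhibits, averaged 157 CPM in adult and 62.3 CPM in E14.5 cultures (log2 fold change 1.33, adjusted p = 0.26).

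Angptl2, whose product is known from inflamed and adipose tissue and binds integrin receptors, had the largest SD of the 9 genes in the embryonic cultures, 53.2 CPM. It had 54.3, 62.5 and 57.9 CPM in adult replicates 1, 2 and 3, and 135, 39.2 and 127 CPM in E14.5 replicates 1, 2 and 3. E14.5 replicate 2 lay below all adult libraries and the other embryonic libraries above them. With all libraries the log2 difference was -0.79 (SE 0.44, adjusted p = 0.43, edgeR), and without E14.5 replicate 2 it was -1.17 (SE 0.11, adjusted p = 0.017). The mesothelial marker sum was highest of the embryonic libraries in replicate 2, at 789 CPM, where replicates 1 and 3 had 163 and 153 CPM. The fibroblast marker sum was lowest in E14.5 replicate 2, at 12500 CPM, against 21900 and 24200 CPM in replicates 1 and 3. In adult libraries these sums were 546 to 1490 and 11900 to 20600 CPM. The part of either cell type in the Angptl2 values was not tested.

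**Figure D4:**
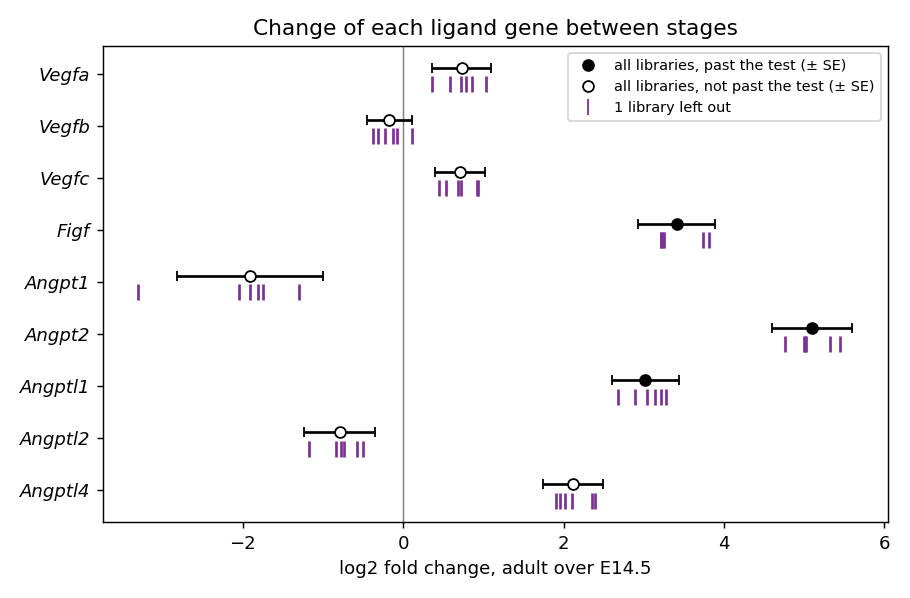
Log2 fold change, adult over E14.5, of the 9 ligand genes with its SE (black), and the value with each library left out in turn (purple ticks). Filled points passed edgeR's test at an adjusted p of 0.05: Figf at 3.41, Angpt2 at 5.1 and Angptl1 at 3.02. All ticks lie on the same side of 0 as the point except 1 of Vegfb.

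Of 5 other ligands of these families, Angptl7, first described in the cornea, stood out in adult cultures. It had 284, 365 and 528 CPM in adult replicates 1, 2 and 3, and 1.09, 11.8 and 1.21 CPM in E14.5 replicates 1, 2 and 3. Every adult library was far above every embryonic one. Its log2 fold change was 6.38 (SE 1.13, adjusted p = 0.067 in edgeR, 1e-06 in DESeq2 and 0.035 in limma-voom), and without E14.5 replicate 2, its highest embryonic library, the value was 8.41 (adjusted p = 0.0084, edgeR). At 182 ± 57.6 CPM per kilobase in adult cultures it stood above Vegfa at 83 ± 38.5 (SD, n = 3 each). Angpt4, a TEK ligand, had 7.31, 2.43 and 5.27 CPM in adult and 1.94, 2.67 and 0.958 CPM in E14.5 libraries (adjusted p = 0.25). Pgf, for placental growth factor, averaged 8.74 and 10.9 CPM in adult and E14.5 cultures (log2 fold change -0.31, SE 0.53, adjusted p = 0.84). Of the 4 tested, 0 passed edgeR's test and 2 were under 0.05 unadjusted, against 17.9% of all genes. DESeq2 and limma-voom called 1 each, against 10.6% and 1.02% of all genes.

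Among the receptors, the co-receptor genes Nrp1 and Nrp2, for the neuropilins, averaged 148 ± 8.27 and 69.3 ± 43.2 CPM in adult cultures and 293 ± 96.3 and 162 ± 62.7 CPM in E14.5 cultures (SD, n = 3 each). Their log2 fold changes of -0.99 (SE 0.25, adjusted p = 0.12) and -1.23 (SE 0.49, adjusted p = 0.27) did not pass the test. Tek, the angiopoietin receptor, had 0.379, 18.8 and 4.32 CPM in the adult libraries and at most 0.219 CPM in an E14.5 library (adjusted p = 0.13). Tie1, its partner, had 12, 841 and 396 counts in the adult libraries and 0, 0 and 2 counts in the E14.5 libraries (adjusted p = 0.097). Both were highest in adult replicates 2 and 3, the libraries with Pecam1 and Cdh5, and without these libraries the log2 fold change of Tek was 1.01, against 5.35 with them. Flt4, the receptor of VEGF-C and VEGF-D, had 1.21, 18.5 and 8.37 CPM in adult and 3.06, 3.38 and 2.41 CPM in E14.5 libraries. Kdr, the main VEGF-A receptor, had 15.5, 14.2 and 17.3 CPM in adult and 9.04, 12.4 and 7.63 CPM in E14.5 libraries (log2 fold change 0.69, adjusted p = 0.18). Kdr reads were present in libraries with Pecam1 under 1 CPM. Flt1 averaged 18.6 ± 10.2 CPM in adult and 12.5 ± 12 CPM in E14.5 cultures. Of 7 receptor genes tested, 0 passed edgeR's test and 5 were under 0.05 unadjusted, against 17.9% of all genes. DESeq2 called 3 of the 7, against 10.6% of all genes, and limma-voom called 0.

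Among genes that release or hold these ligands, Svep1 rose in adult cultures. Svep1 encodes a matrix protein that binds angiopoietins and is needed for lymphatic remodelling in mouse embryos. It averaged 229 ± 15.9 CPM in adult and 51.4 ± 15.9 CPM in E14.5 cultures (SD, n = 3 each; log2 fold change 2.15, SE 0.25, adjusted p = 0.03, edgeR). Adjusted p was 0.072, 0.062 and 0.14 without adult replicate 1, 2 or 3, and 0.12 without E14.5 replicate 1. It was the only 1 of 5 tested integrin and matrix partners past the test, which called 1.08% of all genes. The integrin genes Itgb1 and Itga5 averaged 3300 and 1390 CPM in adult and 4090 and 1240 CPM in E14.5 cultures. Ccbe1, whose product helps to cleave VEGF-C into its active form, had 17, 33.5 and 15.9 CPM in adult and 9.38, 2.42 and 7.38 CPM in E14.5 libraries, without overlap (log2 fold change 1.79, SE 0.55, adjusted p = 0.17). Furin, a protease that cleaves the precursors of VEGF-C and VEGF-D, averaged 131 CPM in adult and 154 CPM in E14.5 cultures (adjusted p = 0.75). Pcsk5, a related protease, averaged 49.3 and 12.7 CPM in adult and E14.5 cultures (adjusted p = 0.31). Of the 6 processing genes tested, 0 passed edgeR's test and 1 was under 0.05 unadjusted, a share near the 17.9% of all genes. DESeq2 called 1 of the 6, against 10.6% of all genes, and limma-voom called 0.

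**Figure D5:**
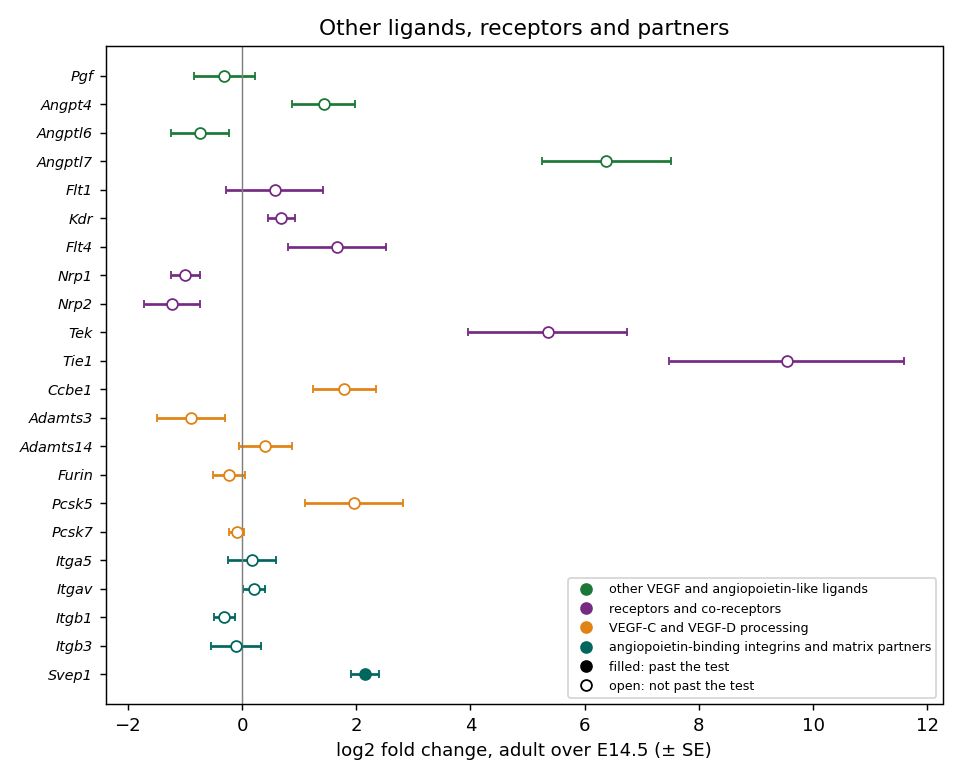
Log2 fold change, adult over E14.5, with its SE for the tested genes of 4 lists: other ligands, receptors and co-receptors, processing proteins, and integrin and matrix partners. Only Svep1, at 2.15, is filled as past edgeR's test; Tek and Tie1 have the widest error bars.

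The genes whose profile over the 6 libraries was most like each ligand gene were sought among 8460 named genes of at least 10 CPM, by the root mean square difference of log2 CPM after each gene was centred on its mean. Nearest to Angpt2 were Gpr133 at 0.453 and Cyp26b1, a retinoic acid degrading enzyme, at 0.46. Nearest to Figf were Ptgis, prostacyclin synthase, at 0.457 and Fmod, fibromodulin, at 0.495. Angptl1 lay nearest to Pde3a at 0.328 and Fam26e at 0.371, and Angptl4 to Syne2 at 0.263 and Il1r1 at 0.295. Angptl2 lay nearest to Fgfr2 at 0.0991 and Rgl1 at 0.13. Vegfa lay nearest to Plekhf1 at 0.166 and Gadd45b at 0.192, Vegfb to Nipal3 at 0.0598 and Rnpep at 0.0802, and Vegfc to Tmtc2 at 0.11 and Heg1 at 0.124. A gene that changes little has near neighbours more easily, since many genes are as flat, so these distances are not comparable between ligand genes.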

How the data were processed

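RNA was sequenced from 6 cultures as stranded poly(A) libraries, single end over 75 bp, per the labels' protocols. Whole-number counts for each gene, not normalized, were deposited by the authors. Reads were aligned with STAR to mm10, per the submitters' processing notes. Version, annotation and the treatment of shared reads: not given in the sources used here. Counts from the reverse-strand column were used, since forward counts made up 1.33% to 1.69%. Rows that name no gene, such as ambiguous or multimapping reads (17.4% to 19.8%), were left out. Replicates were numbered in accession order.

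Genes were filtered with filterByExpr, scaled by TMM and tested with edgeR 4.0.16 (quasi-likelihood, robust) in R 4.3.3 with Benjamini-Hochberg adjustment over all genes and a threshold of 0.05; SE is the log2 fold change divided by the root of F. DESeq2 1.42.0, limma-voom (limma 3.58.1), other scalings, filters, the unstranded column, a title-prefix block and left-out libraries were alternatives. Log2 CPM used a prior count of 2. The members and lists were chosen with earlier results of these data known. Named by rule were the 9 ligand genes, from each pathway list the genes past the test (at most 3 in each direction) and the 2 most abundant others, from each marker list the 2 of highest CPM in any library, and the 2 nearest profiles. Angpt4, Tek, Tie1, Flt1, Flt4, Kdr, Ccbe1, Cspg4, Kcnj8, Abcc9, Pdgfra, Csf1r, Vwf, Cd93, Cd36, Plin2 and single markers such as Cdh5, Ecscr, Cldn5, Robo4 and Mmrn2 were named after their values were seen. Some genes of the lists are not reported here. The fit was tested on simulated data.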

Additional observations from a re-analysis of the deposited data

How the results depend on the processing

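The direction of 8 of the 9 ligand genes held under all alternatives tried. Vegfb was the exception, with -0.37 to 0.11 when 1 library was left out and the positive value without E14.5 replicate 3. The unstranded column, other scalings and other filters changed no call of the 9 genes. Leaving out 1 library gave 3 to 471 called genes, against 146 with all (38, 46 and 3 without adult replicate 1, 2 or 3, and 3, 471 and 111 without E14.5 replicate 1, 2 or 3), and 0 to 5 called ligand genes, against 3. It gave log2 fold changes of 3.21 to 3.81 for Figf, 4.76 to 5.45 for Angpt2, 2.68 to 3.28 for Angptl1, 1.91 to 2.39 for Angptl4 and -1.17 to -0.5 for Angptl2. DESeq2 called 1427 genes, 736 higher and 691 lower in adults, where edgeR called 113 and 33, and passed Angptl4 at 2.12. Limma-voom called 1 ligand gene, with Figf at 3.37 and Angpt2 at 4.93 not past the test.

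Without adult replicates 2 and 3, edgeR called 0 genes (842 at an unadjusted p under 0.05) and 0 ligand genes, with Figf at 3.73, Angpt2 at 3.98 and Angptl1 at 2.79. Without adult replicate 2 and E14.5 replicate 3 it called 36 genes and 0 ligand genes, with 3.57, 4.98 and 3.08 in that order. With the title prefix as a block, edgeR called 2 genes and 0 of the 9 ligand genes, with Figf at 3.39, Angpt2 at 4.98 and Angptl1 at 3.13. The labels do not say that a prefix pairs cultures, and deviations from the group means of libraries sharing one were correlated at -0.141, -0.229 and -0.0875, and no library correlated best with its own prefix. Depth limits Angpt1 most, with 9 counts over the adult and 45 over the E14.5 libraries. The cause of the changes between settings was not tested.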

Other observations

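Vegfa and Angptl4 are known to be induced by low oxygen. Of 15 tested genes of a hypoxia list, 0 passed edgeR's test and 3 were under 0.05 unadjusted, a share near the 17.9% of all genes. DESeq2 called 3 of the 15, against 10.6% of all genes, and limma-voom called 0. The median log2 fold change of the hypoxia list, adult over E14.5, was 0.04. Its most abundant genes, the collagen prolyl hydroxylase P4ha1 and the lactate dehydrogenase Ldha, averaged 534 and 528 CPM in adult and 590 and 514 CPM in E14.5 cultures. Of 8 tested genes of a list of PPAR and fatty acid response, 0 passed edgeR's test and 3 were under 0.05 unadjusted, against 17.9% of all genes. DESeq2 called 2, Cd36 and Plin2, each lower in adults, against 10.6% of all genes, and limma-voom called 0. The log2 fold change was -6.02 for Cd36 (adjusted p = 0.065, edgeR) and -0.79 for Plin2 (adjusted p = 0.096, edgeR). The median over the list was 0.15, with 5 genes positive, among them Lpl, and 3 negative.

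Marker lists of other cells differed between libraries. Macrophage and leukocyte markers, among them Lyz2, C1qa and Csf1r, summed to 24.9 to 194 CPM in adult and 239 to 2680 CPM in E14.5 libraries, and all 12 had at least 1 count in every library. By edgeR 0 of the 12 passed, all 12 had a negative log2 fold change, and 11 were under 0.05 unadjusted (17.9% of all genes were). DESeq2 called 11 of the 12, against 10.6% of all genes, and limma-voom called 0. Lymphatic markers were led by Pdpn, at 225 to 442 CPM in adult and 42.8 to 407 CPM in E14.5 libraries, a gene that mesothelium also expresses. Prox1, which defines lymphatic endothelium, had 0.265, 7.05 and 3.38 CPM in adult and 0.652 to 1.06 CPM in E14.5 libraries, and Ccl21a had 0 counts in all 6. Of 4 lymphatic markers tested, 0 passed edgeR's test, 0 were under 0.05 unadjusted, and DESeq2 and limma-voom called 0. Among pericyte markers Mcam had the most reads. Mesothelial markers were led by Upk3b and Upk1b, at means of 345 and 273 CPM in adult and 93.3 and 122 CPM in E14.5 cultures. Smooth muscle markers, among them Actg2, summed to 18600 to 29900 CPM in adult and 24800 to 36000 CPM in E14.5 libraries. Fibroblast markers, among them Col1a2, summed to 11900 to 20600 CPM in adult and 12500 to 24200 CPM in E14.5 libraries. Pdgfra was the only 1 of 7 tested past edgeR's test, which called 1.08% of all genes. It averaged 47.4 CPM in adult and 3.59 CPM in E14.5 cultures (log2 fold change 3.72, SE 0.5, adjusted p = 0.036, edgeR). Epithelial markers summed to 10.1 to 14.3 CPM in adult and 25.3 to 61.8 CPM in E14.5 libraries, nearly all of it Krt20, with Cdh1 at most 0.803 CPM. Glial and neuronal markers summed to 74.9 to 143 CPM in adult and 13.4 to 56.1 CPM in E14.5 libraries, led by Tubb3. By edgeR 0 of 7 mesothelial, 0 of 7 smooth muscle, 0 of 2 epithelial and 0 of 3 glial and neuronal genes passed. Unadjusted p was under 0.05 for 2, 1, 1 and 1 of them in that order, DESeq2 called as many, and limma-voom called 0. Over all genes these shares were 17.9% unadjusted, 10.6% by DESeq2 and 1.02% by limma-voom.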
